A study of Mus musculus with 24 samples.

Results

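The 10 genes described here carry out antigen presentation on major histocompatibility complex (MHC) class I molecules in the mouse: H2-D1, H2-K1, B2m, Tap1, Tap2, Tapbp, Psmb8, Psmb9, Erap1 and Nlrc5. They were chosen by symbol, from their known roles and with earlier results of these data known, and are 10 of the 31346 nuclear genes in the count table. The study asked whether a diet that combines 3 drugs, tamsulosin, metoprolol and bromocriptine (TMB), stabilises the retinal transcriptome of rd10 mice, a model of retinitis pigmentosa. Polyadenylated RNA from the retinas of 24 mice was sequenced as 1 library per mouse, with as many females as males in each group. The rd10 mice carry the rd10 mutation of Pde6b, which encodes a subunit of the rod phosphodiesterase, on the C57BL/6J background. The rd10 TMB group (n = 8) and the rd10 vehicle group (n = 8) were dark-reared from birth and moved to the cyclic light of the vivarium at P29. The rd10 TMB mice ate the drug chow from P28, whereas the rd10 vehicle mice ate the same base chow without drugs. The rd10 DR group (n = 4) was kept in full darkness on base chow. The WT group (n = 4) consisted of C57BL/6J mice on base chow, taken here to share the lighting schedule of the treated rd10 mice. The paper calls them matched in age and sex, and it describes the dark rearing and the move at P29 for the rd10 mice. Retinas of the rd10 TMB, rd10 vehicle and WT groups were collected at P36 by the labels and P37 by the study's methods, and those of the rd10 DR group at P30 by the labels and P28 by the methods. Every group was anaesthetised on the day before collection, the rd10 TMB and rd10 vehicle mice for an electroretinogram. The rd10 DR mice thus differed from the rd10 vehicle mice in both age and lighting, which cannot be told apart. From the WT mice they differed in genotype, age and lighting at once, which cannot be told apart either.

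MHC class I molecules display short peptides from the proteins of a cell to CD8+ T cells. Proteins are cut by the proteasome, in which the interferon-induced catalytic subunits Psmb8 and Psmb9 replace constitutive ones, and the peptides are pumped into the endoplasmic reticulum by the Tap1 and Tap2 transporter, trimmed by Erap1 and loaded, with the help of Tapbp (tapasin), onto a heavy chain bound to B2m. Nlrc5 is the transactivator that drives class I genes, and the healthy neural retina is known for low class I levels, with microglia, its resident macrophages, among the cells able to raise them.

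The promoters of members that moved together are shown because class I genes share a short block of regulatory letters. The sequences are the 180 bases before the start site in RefSeq on GRCm38.p6, read 5′ to 3′ on the strand of the gene, and capitals mark matches on either strand to the motifs searched. H2-K1 lies at chr17:34000334-34000513 on the minus strand, H2-D1 at chr17:35262914-35263093 on the plus strand, B2m at chr2:122147507-122147686 on the plus strand, Tap1 at chr17:34187376-34187555 on the plus strand and Tapbp, the member that did not pass the test against WT, at chr17:33919298-33919477 on the plus strand.
H2-K1: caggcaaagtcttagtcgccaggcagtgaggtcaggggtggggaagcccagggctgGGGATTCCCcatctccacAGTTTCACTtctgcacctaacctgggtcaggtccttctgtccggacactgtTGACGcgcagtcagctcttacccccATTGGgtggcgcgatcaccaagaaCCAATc
H2-D1: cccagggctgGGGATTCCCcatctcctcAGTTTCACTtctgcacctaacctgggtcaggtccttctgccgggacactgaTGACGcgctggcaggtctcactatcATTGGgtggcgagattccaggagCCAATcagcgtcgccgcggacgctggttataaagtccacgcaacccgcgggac
B2m: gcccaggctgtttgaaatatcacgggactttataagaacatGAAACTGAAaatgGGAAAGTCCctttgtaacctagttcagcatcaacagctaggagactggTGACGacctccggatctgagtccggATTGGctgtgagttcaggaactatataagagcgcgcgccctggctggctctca
Tap1: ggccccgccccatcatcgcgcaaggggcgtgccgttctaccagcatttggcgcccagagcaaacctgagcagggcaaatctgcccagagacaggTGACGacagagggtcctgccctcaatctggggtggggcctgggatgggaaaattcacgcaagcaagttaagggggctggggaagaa
Tapbp: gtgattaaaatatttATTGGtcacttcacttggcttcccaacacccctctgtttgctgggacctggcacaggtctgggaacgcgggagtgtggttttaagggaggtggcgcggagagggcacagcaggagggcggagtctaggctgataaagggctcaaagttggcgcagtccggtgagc

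The motifs were searched on both strands in the 250 bases before the start, in 32851 promoter entries, of which 8 of the 10 members had 1 or more. The letters GGGATTCCC, the core of a kappa B site known from class I genes, were present in 0.301% of all promoters, and they began 124 bases before the start in H2-K1 and 170 bases before it in H2-D1. The letters AGTTTCACT, from the interferon element of class I genes, were present in 0.268% of promoters and began 106 bases before the start in H2-K1 and 152 bases before it in H2-D1. RefSeq lists a second start for H2-K1, before which the same kappa B and interferon letters began at 110 and 92 bases. The letters TGACG, the core of the element called site alpha, were found in 17.8% of promoters and among the members in H2-K1, H2-D1, B2m, Tap1 and Psmb9. In Tap1 and Psmb9 the match is the same stretch of the chromosome, read from opposite strands. B2m held a symmetric kappa B pattern, GGANNNTCC (7.27% of promoters), 126 bases before its start and an interferon-stimulated pattern, GAAANNGAA (7.13% of promoters), 139 bases before it, and Erap1 held the second of these 9 bases before its start. CCAAT, often a site of nuclear factor Y, was found in 33.8% of promoters. From the class I kappa B letters onward, H2-K1 and H2-D1 were identical at 57 of 60 bases (95%). Tap1 and Psmb9 are divergent genes whose starts lie 226 bases apart, so that their promoter windows overlap. The promoter of Psmb8 held no match to the letters searched. These matches are descriptions of the letters and not of binding.

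The libraries held 56799680 to 86471014 counts, so that each member was counted in every retina. Pde6b averaged 1360 ± 362 counts per 1000000 counts (CPM, scaled with TMM normalisation factors) in rd10 TMB retinas, 738 ± 289 CPM in rd10 vehicle retinas, 2221 ± 50.6 CPM in rd10 DR retinas and 3867 ± 272 CPM in WT retinas (SD). The rd10 allele is a missense change, so the transcript is still counted. Summed over 7 rod genes, the level spanned 15281 to 32314 CPM in rd10 TMB, 6087 to 20524 CPM in rd10 vehicle and 39490 to 43862 CPM in rd10 DR retinas, with 66819 to 75710 CPM in WT retinas. A few libraries stood apart. WT retina 3 was the highest WT retina for 10 of 10 members, and rd10 DR retina 3 was the highest rd10 DR retina for 10 of 10. The rd10 TMB retinas 2, 3 and 4 had summed pigment epithelium genes of 1100, 1380 and 1446 CPM, against 742 to 888 CPM in the other 5 rd10 TMB retinas and 752 to 947 CPM in the rd10 vehicle retinas. A large part of these sums was Rlbp1, which is also among the Müller glia genes. It averaged 643 CPM in rd10 TMB and 694 CPM in rd10 vehicle retinas, where the sums averaged 998 and 870 CPM. For the sum of the interferon and class I regulator genes, rd10 vehicle retina 4 was at 1052 CPM and the other 7 rd10 vehicle retinas at 891 to 912 CPM. Values without these libraries stand beside the results they moved most.

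Class I presentation genes were higher in the rd10 retina than in the WT retina in each of the 3 rd10 groups. In rd10 vehicle retinas 9 of the 10 members were higher than in WT, between 1.51-fold (Erap1) and 7.29-fold (Nlrc5), and Tapbp did not pass the test. The 9 members that passed were the same in rd10 TMB and in rd10 DR retinas, with Tapbp again the exception. All differences come from edgeR's quasi-likelihood test, fitted on the 2 groups compared, with Benjamini-Hochberg adjustment over all genes tested and a threshold of 0.05. Such calls were common: 61.8% of 20763 genes passed in rd10 vehicle against WT, 31.6% higher, with 52.2% and 27.2% in rd10 TMB and 24.7% and 14.5% in rd10 DR. The median log2 fold change of the members was 1.63 in rd10 vehicle, 1.61 in rd10 TMB and 1.44 in rd10 DR against WT, beside medians of 0.015, 0.004 and 0.004 over all genes tested. These 3 comparisons share the 4 WT retinas. In rd10 DR against WT, age and lighting differ together with the genotype, so its differences cannot be assigned to the genotype alone. In bulk tissue, fewer cells of a type and less RNA per cell cannot be told apart, and neither can more cells and more RNA per cell.

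The groups themselves did not overlap for 9 of 10 members in rd10 vehicle against WT, where 41.9% of all genes tested had groups that did not overlap, 22.1% with the rd10 group higher. This was so for 8 of 10 members in rd10 TMB (32.2% of genes, 18.1% higher) and 7 of 10 in rd10 DR (27% of genes, 15% higher). Counted together, the members summed to 531 ± 80.0 CPM of unscaled counts in rd10 TMB, 553 ± 55.8 CPM in rd10 vehicle, 450 ± 57.0 CPM in rd10 DR and 188 ± 55.9 CPM in WT libraries (SD, n = 8, 8, 4 and 4).

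**Figure D1:**
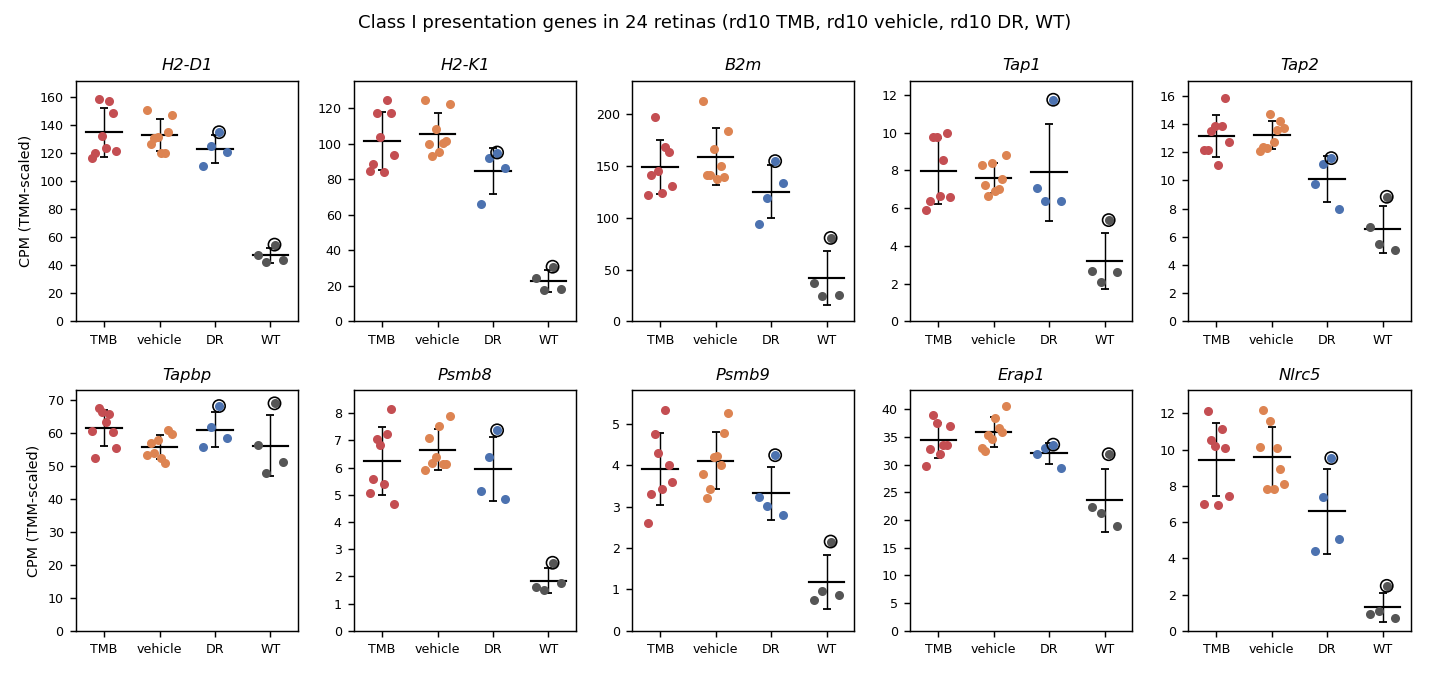
Level of each member in each of the 24 retinas, as TMM-scaled CPM on linear axes from 0, with 1 point per retina for the rd10 TMB (n = 8), rd10 vehicle (n = 8), rd10 DR (n = 4) and WT (n = 4) groups; lines are the mean and SD, and circles mark WT retina 3 and rd10 DR retina 3. Except for Tapbp, the rd10 points lie mostly above the WT points (Nlrc5 is 7.82 to 12.2 CPM in rd10 vehicle and 0.695 to 2.49 CPM in WT retinas), while the rd10 TMB and rd10 vehicle points overlap in every panel.

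The plot of each member by retina shows 2 features that the following values detail, namely a wide gap between rd10 and WT retinas for most members and the circled WT retina at the top of its group. In the rd10 groups the heavy chains and their partner gave the highest levels. In WT retinas Tapbp had the highest mean, at 56.2 CPM, above H2-D1 at 47.2 CPM. H2-D1 (chr17:35262730-35267499), a classical heavy chain, had a lowest, median and highest level of 116, 128 and 159 CPM in rd10 TMB retinas and 119.7, 131 and 151 CPM in rd10 vehicle retinas, with 111, 125, 135 and 121 CPM in the rd10 DR retinas and 47.6, 42.6, 54.8 and 43.7 CPM in the WT retinas. Every rd10 retina was above every WT retina. Its log2 fold change against WT was 1.5 in rd10 TMB (SE 0.105, adjusted p = 1.14e-07, edgeR), 1.48 in rd10 vehicle (SE 0.0791, adjusted p = 1.05e-08) and 1.39 in rd10 DR (SE 0.0903, adjusted p = 3.95e-06). H2-D1 varied little within groups, by 8.58% of the mean in rd10 vehicle and 11.6% in WT retinas (coefficient of variation).

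H2-K1 (chr17:33996017-34000347), the other classical heavy chain counted here, had 84.0, 98.6 and 125 CPM (lowest, median, highest) in rd10 TMB, 93.2, 101 and 124 CPM in rd10 vehicle, 65.9, 91.8, 95 and 86.2 CPM in rd10 DR and 24.7, 17.8, 30.8 and 18.3 CPM in WT retinas. The rd10 and WT retinas did not overlap, and the difference was larger than for H2-D1, at log2 fold changes of 2.14 in rd10 TMB (4.42-fold, adjusted p = 2.39e-07), 2.20 in rd10 vehicle (4.59-fold, adjusted p = 3.43e-08) and 1.90 in rd10 DR (3.73-fold, adjusted p = 4.55e-05). B2m (chr2:122147686-122153083), the light chain that every classical class I molecule needs, had 122, 143 and 198 CPM in rd10 TMB, 137, 146 and 213 CPM in rd10 vehicle, 94.2, 119, 155 and 134 CPM in rd10 DR and 37.1, 24.3, 80.6 and 25.9 CPM in WT retinas. WT retina 3 had more than the other WT retinas and still less than every rd10 retina. The log2 fold change of B2m was 1.82 in rd10 TMB (SE 0.280, adjusted p = 7.96e-05), 1.91 in rd10 vehicle (SE 0.277, adjusted p = 3.26e-05) and 1.58 in rd10 DR (SE 0.342, adjusted p = 0.00697). Without WT retina 3, it was 2.44 in rd10 vehicle against WT, a 5.43-fold difference in place of 3.77-fold. The heavy chain genes are close copies of each other and of other class I genes, so the share of reads counted for each is uncertain, and B2m lies within the annotated range of Patl2 on the opposite strand, whose reads cannot be told apart in libraries that keep no strand.

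Compared per kilobase of exon, which allows levels to be set between genes, B2m was the most abundant member, with 173 CPM per kb in rd10 TMB, 185 in rd10 vehicle, 146 in rd10 DR and 48.8 in WT retinas. H2-D1 followed with 52.2, 51.4, 47.6 and 18.3 CPM per kb in the same order of groups. H2-K1 stood at 34.6, 35.9, 28.8 and 7.78 CPM per kb, so that it was above Tapbp in the rd10 groups and below it in WT retinas, where Tapbp had 15.5 CPM per kb. The lowest member per kilobase was Nlrc5 in rd10 DR and WT retinas, at 0.778 and 0.154 CPM per kb, while in rd10 TMB and rd10 vehicle retinas Psmb9 and Nlrc5 were within 1 SD of each other (1.07 and 1.11 CPM per kb in rd10 TMB, 1.12 and 1.13 in rd10 vehicle).

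Both chains of the peptide transporter were higher in each rd10 group than in WT. Tap1 (chr17:34187553-34197225), one chain of the transporter, had 5.93, 7.61 and 9.97 CPM in rd10 TMB, 6.64, 7.38 and 8.82 CPM in rd10 vehicle, 7.05, 6.40, 11.7 and 6.38 CPM in rd10 DR and 2.65, 2.10, 5.37 and 2.62 CPM in WT retinas. No rd10 retina was as low as WT retina 3, and rd10 DR retina 3 held the highest value of all groups. Tap1 rose by a log2 fold change of 1.31 in rd10 TMB (adjusted p = 0.000372), 1.25 in rd10 vehicle (adjusted p = 8.93e-05) and 1.32 in rd10 DR (adjusted p = 0.00948), and by 1.06 in rd10 DR without its retina 3. Without WT retina 3, Tap1 was 3.06-fold higher in rd10 vehicle, in place of 2.37-fold. Tap2 (chr17:34203527-34216321), the other chain, had 11.1, 13.1 and 15.8 CPM in rd10 TMB, 12.1, 13.1 and 14.7 CPM in rd10 vehicle, 9.77, 11.2, 11.6 and 7.97 CPM in rd10 DR and 6.70, 5.52, 8.84 and 5.06 CPM in WT retinas. The rd10 TMB and rd10 vehicle retinas were all above the WT retinas, whereas rd10 DR retina 4 was below WT retina 3. Tap2 rose 2.0-fold in rd10 TMB (adjusted p = 3.2e-05), 2.01-fold in rd10 vehicle (adjusted p = 8.13e-06) and 1.56-fold in rd10 DR (adjusted p = 0.0275), and the last call was lost in 6 of 8 fits that left out 1 retina (adjusted p = 0.0530 to 0.0812).

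Tapbp (chr17:33915899-33929292), which encodes tapasin, the chaperone that holds empty class I molecules at the transporter, had 52.3, 62.0 and 67.8 CPM in rd10 TMB, 50.9, 55.4 and 60.8 CPM in rd10 vehicle, 55.6, 61.9, 68.2 and 58.5 CPM in rd10 DR and 56.5, 48.0, 69.0 and 51.2 CPM in WT retinas. The 4 groups overlapped. Its log2 fold change against WT was 0.12 in rd10 TMB (95% interval -0.07 to 0.32, adjusted p = 0.280), -0.02 in rd10 vehicle (-0.19 to 0.15, adjusted p = 0.830) and 0.13 in rd10 DR (-0.11 to 0.38, adjusted p = 0.428). In rd10 TMB and rd10 vehicle these intervals lie below those of Tap1 and Tap2 in the same group. In rd10 DR the interval of Tapbp overlaps that of Tap2 (0.24 to 1.05). Without WT retina 3, which had the highest level of all retinas, Tapbp was 1.18-fold higher both in rd10 TMB (adjusted p = 0.0218) and in rd10 DR (adjusted p = 0.0302) than in WT, and was still not called in rd10 vehicle (adjusted p = 0.235). Tapbp overlaps Zbtb22 on the same strand over 3422 bases of the annotated genes.

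The immunoproteasome subunits were low in WT and rose in all rd10 groups. Psmb8 (chr17:34197721-34201454), which takes the place of Psmb5, had 4.65, 6.20 and 8.15 CPM in rd10 TMB, 5.91, 6.27 and 7.91 CPM in rd10 vehicle, 5.15, 6.40, 7.37 and 4.85 CPM in rd10 DR and 1.62, 1.49, 2.50 and 1.75 CPM in WT retinas. The lowest rd10 retina was well above the highest WT retina. Psmb8 rose 3.37-fold in rd10 TMB (log2 1.75, SE 0.187, adjusted p = 3.00e-06), 3.59-fold in rd10 vehicle (log2 1.84, SE 0.145, adjusted p = 1.33e-07) and 3.25-fold in rd10 DR (log2 1.70, SE 0.199, adjusted p = 0.000182). Psmb9 (chr17:34181987-34187764), which takes the place of Psmb6, had 2.61, 3.79 and 5.34 CPM in rd10 TMB, 3.2, 4.10 and 5.27 CPM in rd10 vehicle, 3.24, 3.02, 4.24 and 2.80 CPM in rd10 DR and 0.748, 0.956, 2.16 and 0.873 CPM in WT retinas. WT retina 3 came within reach of the lowest rd10 retinas but stayed below them. The rise of Psmb9 was 3.28-fold in rd10 TMB (adjusted p = 0.000116), 3.45-fold in rd10 vehicle (adjusted p = 2.41e-05) and 2.82-fold in rd10 DR (adjusted p = 0.00568), and without WT retina 3 it was 4.72-fold in rd10 vehicle. Psmb9 and Tap1 overlap over 212 bases at their divergent starts, where reads cannot be told apart by strand.

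Erap1 (chr13:74639568-74693201), the aminopeptidase that trims peptides in the endoplasmic reticulum, rose least among the 9 members that passed. It had 29.8, 33.5 and 39.0 CPM in rd10 TMB, 32.6, 35.7 and 40.6 CPM in rd10 vehicle, 31.9, 33.1, 33.6 and 29.5 CPM in rd10 DR and 22.3, 21.3, 31.9 and 19 CPM in WT retinas. WT retina 3 reached into the range of the rd10 TMB and rd10 DR retinas, and the rd10 vehicle retinas were all above it. The log2 fold change of Erap1 was 0.53 in rd10 TMB (adjusted p = 0.00153), 0.59 in rd10 vehicle (adjusted p = 0.000317) and 0.45 in rd10 DR (adjusted p = 0.0416), and the call in rd10 DR was lost in 7 of 8 fits that left out 1 retina and when sex was a term (adjusted p = 0.0529).

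Nlrc5 (chr8:94434356-94527272), the transactivator of class I genes, showed the largest fold change of the 10 members in each rd10 group against WT. It had 6.97, 10.1 and 12.1 CPM in rd10 TMB, 7.82, 9.50 and 12.2 CPM in rd10 vehicle, 4.43, 7.41, 9.54 and 5.05 CPM in rd10 DR and 0.944, 1.10, 2.49 and 0.695 CPM in WT retinas. No rd10 retina overlapped the WT retinas, and among the rd10 groups the rd10 DR retinas varied most (coefficient of variation 35.4%). Nlrc5 rose 7.18-fold in rd10 TMB (log2 2.84, SE 0.302, adjusted p = 2.91e-06), 7.29-fold in rd10 vehicle (log2 2.87, SE 0.286, adjusted p = 9.23e-07) and 5.09-fold in rd10 DR (log2 2.35, SE 0.383, adjusted p = 0.00139). Without WT retina 3 the rise in rd10 vehicle was 10.4-fold (log2 3.38), and 9 of 10 members were still called there.

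**Figure D2:**
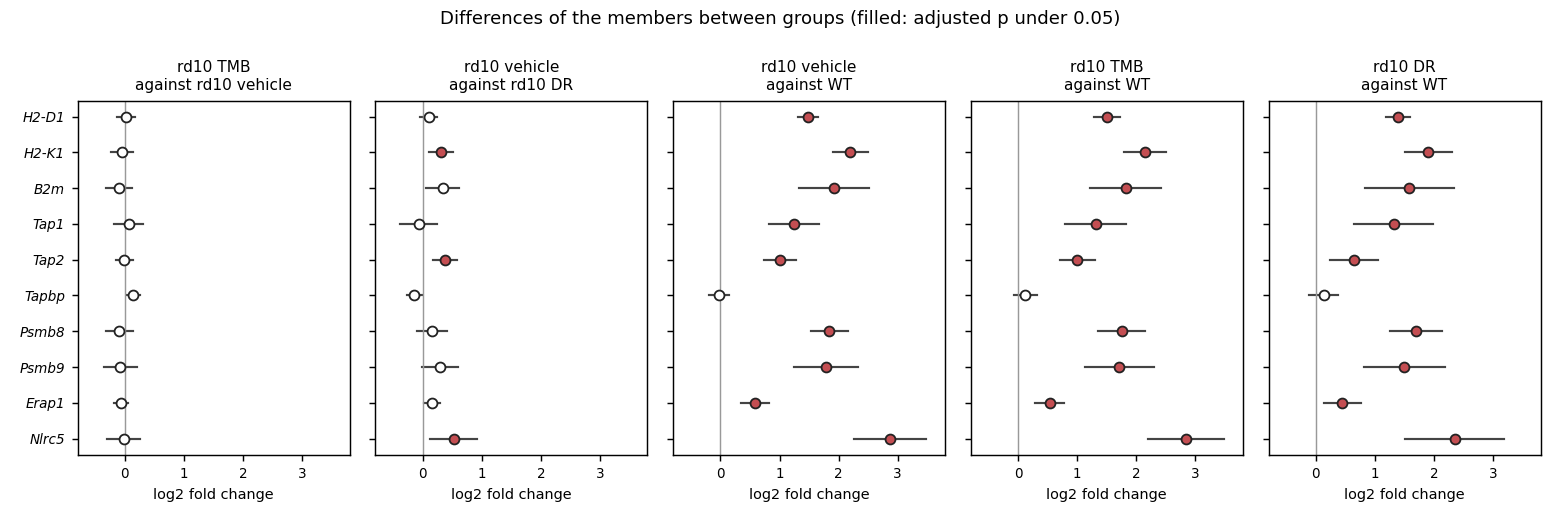
Log2 fold change of each member with its 95% interval from edgeR's quasi-likelihood fit, in 1 panel per comparison, with the first-named group over the second; filled points passed an adjusted p of 0.05 over all genes tested. In the panel of rd10 TMB against rd10 vehicle all 10 points are open and lie between -0.10 and 0.14, while 9 points are filled in each panel against WT, and Tapbp is open there.

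The plot of fold changes sets the contrast with WT beside the 2 contrasts within rd10. The drug diet did not change the members detectably. In rd10 TMB against rd10 vehicle, 0 of 10 members passed the test, where 5.69% of 20251 genes did, and DESeq2 called 0 as well. At an unadjusted p under 0.05 there was 1 member, Tapbp, with a log2 fold change of 0.14 (95% interval 0.03 to 0.25, adjusted p = 0.126). The median over the members was -0.04, beside 0 over all genes. For no member were the 2 groups apart (0.262% of all genes had groups that did not overlap).

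The intervals bound how much of a diet difference these 16 retinas leave possible. For Nlrc5 the log2 fold change of rd10 TMB over rd10 vehicle was -0.02 with an interval of -0.30 to 0.25, for B2m it was -0.10 (-0.32 to 0.13), and for H2-K1 it was -0.06 (-0.24 to 0.13). For H2-D1 it was 0.02 (-0.13 to 0.17), for Tap1 0.06 (-0.18 to 0.30), for Tap2 -0.01 (-0.15 to 0.13) and for Erap1 -0.06 (-0.18 to 0.06). The immunoproteasome subunits stood at -0.09 (-0.33 to 0.14) for Psmb8 and -0.08 (-0.35 to 0.20) for Psmb9. The rod genes differed between the same groups, with 6 of 7 higher in rd10 TMB, where 5.69% of all genes passed. Leaving out the rd10 TMB retinas with high pigment epithelium genes also gave 0 of 10 members, although only 3 of all genes passed there. The count over all genes depended on single libraries in this comparison, from 2 genes without rd10 vehicle retina 1 to 1676 without rd10 vehicle retina 2. The diet difference was not found to depend on sex for a member, with 0 of 10 passing the interaction of diet and sex (0% of 21272 genes, 0 members at an unadjusted p under 0.05, and 0 members by DESeq2).

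In rd10 vehicle against rd10 DR, which sets older retinas after a week of cyclic light beside younger dark-reared ones, 3 of 10 members were higher, where 42.6% of 20850 genes passed and 21.9% were higher. Tap2 was 1.30-fold higher (log2 0.37, SE 0.0937, adjusted p = 0.00450), with every rd10 vehicle retina above every rd10 DR retina, the only member of which this was so (26.7% of all genes, 14% higher). H2-K1 was 1.24-fold higher (adjusted p = 0.0163) and Nlrc5 1.44-fold higher (adjusted p = 0.0325), both with overlapping groups. The other 7 were not called: B2m 0.34 (adjusted p = 0.0507), Psmb9 0.30 (0.106), Erap1 0.15 (0.0540), Psmb8 0.15 (0.317), H2-D1 0.10 (0.236), Tap1 -0.06 (0.757) and Tapbp -0.14 (0.0728) on the log2 scale. The members' median was 0.23, beside 0.017 over all genes. The count depended on single retinas and on the scaling, from 1 to 7 members: without rd10 DR retina 1, the lowest for 5 members, H2-K1 and Nlrc5 were lost (adjusted p = 0.0671 and 0.123) and Tapbp was called lower (log2 -0.18), whereas without rd10 DR retina 3 B2m and Psmb9 were added.

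Calls over all genes also shifted with the scaling. Of the genes called, 51.1% were higher in rd10 vehicle than in WT, and 72.3% when library totals alone set the scale. These shares were 52.2% and 74.8% in rd10 TMB against WT, 58.8% and 78.9% in rd10 DR against WT, 59.3% and 38.7% in rd10 TMB against rd10 vehicle, and 51.5% and 69.5% in rd10 vehicle against rd10 DR. Without the scaling factors, the median log2 fold change over all genes moved to 0.218, 0.17 and 0.092 in the 3 contrasts with WT in that order, to -0.034 between the diets and to 0.117 in rd10 vehicle against rd10 DR. The 9 members that rose against WT kept their direction under this scaling in all 3 rd10 groups. As this scaling moved fold changes against WT upward, it could not have reversed a rise, so the kept direction carries no weight.

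Ratios of paired genes within a retina do not depend on the scaling, and 5 of them were tested in 5 comparisons each with an exact permutation test, two-sided, with adjustment over the 25 tests. They were chosen after the levels were seen and are given in counts per base of exon. H2-K1 per H2-D1 was 0.661 ± 0.0345 in rd10 TMB, 0.699 ± 0.0379 in rd10 vehicle, 0.603 ± 0.0546 in rd10 DR and 0.420 ± 0.0641 in WT retinas (SD). The rd10 DR retinas had 0.523, 0.645, 0.618 and 0.625, all above the WT values of 0.455, 0.366, 0.493 and 0.367. The log2 ratio differed from WT by 0.66 in rd10 TMB, 0.74 in rd10 vehicle (both exact p = 0.00202, adjusted p = 0.00631) and 0.53 in rd10 DR (exact p = 0.0286, the smallest that 4 against 4 retinas allow, adjusted p = 0.0476). The counts of H2-K1 thus rose more than those of H2-D1, although the share of reads counted for each of these close copies is uncertain.

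The immunoproteasome subunits rose relative to the constitutive subunits that they replace. Psmb8 per Psmb5 was 0.0893 ± 0.0210 in rd10 TMB, 0.0932 ± 0.0157 in rd10 vehicle, 0.0847 ± 0.0184 in rd10 DR and 0.0237 ± 0.00567 in WT retinas. Psmb9 per Psmb6 was 0.0352 ± 0.00899, 0.0373 ± 0.00702, 0.0286 ± 0.00504 and 0.00866 ± 0.00458 in the same order. Psmb10 per Psmb7, the ratio of the remaining pair, was 0.511 ± 0.0429, 0.545 ± 0.0487, 0.429 ± 0.0362 and 0.244 ± 0.0254. All 3 ratios were apart from WT in each rd10 group (adjusted p = 0.00631 in rd10 TMB and rd10 vehicle and 0.0476 in rd10 DR, exact permutation test). In rd10 vehicle the log2 ratio was higher by 1.99 for Psmb8 per Psmb5, 2.21 for Psmb9 per Psmb6 and 1.16 for Psmb10 per Psmb7.

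Tap1 per Tap2 was higher on average in each rd10 group than in WT but did not pass adjustment. It was 0.415 ± 0.0597 in rd10 TMB, 0.398 ± 0.0406 in rd10 vehicle, 0.537 ± 0.127 in rd10 DR and 0.328 ± 0.0739 in WT retinas. The log2 ratio was above WT by 0.35 in rd10 TMB, 0.30 in rd10 vehicle and 0.71 in rd10 DR (adjusted p = 0.0631, 0.0730 and 0.0748, exact permutation test). Tap1 per Tap2 was lower in rd10 vehicle than in rd10 DR by 0.41 on the log2 scale (exact p = 0.0101, adjusted p = 0.0230). H2-K1 per H2-D1 and Psmb10 per Psmb7 were higher in rd10 vehicle than in rd10 DR (log2 0.22 and 0.34, both exact p = 0.00404, adjusted p = 0.0101). No ratio passed between rd10 TMB and rd10 vehicle, where H2-K1 per H2-D1 came nearest (log2 -0.08, exact p = 0.0598, adjusted p = 0.0748).

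**Figure D3:**
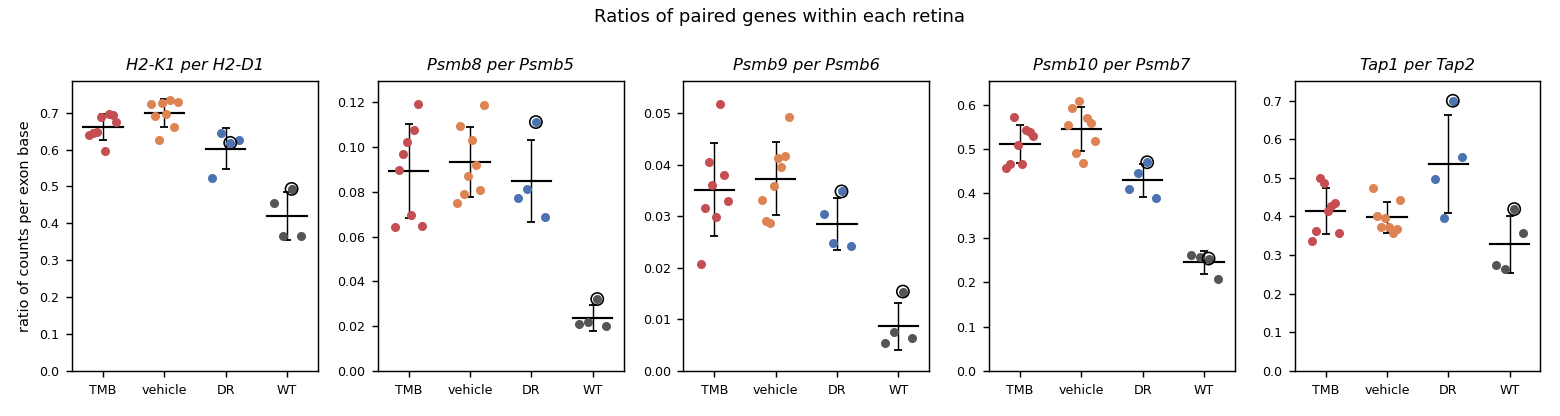
Ratio of counts per exon base for 5 pairs of genes, computed within each retina, with 1 point per retina and the mean and SD of each group, on linear axes from 0; circles mark WT retina 3 and rd10 DR retina 3. The WT points lie below all rd10 points for H2-K1 per H2-D1 and for the 3 immunoproteasome ratios (Psmb8 per Psmb5 averages 0.0932 in rd10 vehicle and 0.0237 in WT), and overlap them for Tap1 per Tap2.

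The other genes of the pathway are given as counts, to be read beside the shares of all genes called: 61.8% in rd10 vehicle, 52.2% in rd10 TMB and 24.7% in rd10 DR against WT, with 31.6%, 27.2% and 14.5% higher. In rd10 vehicle the share called was near that of all genes for the loading partners, proteasome partners, peptidases and regulators. Of 14 further class I heavy chain and class I-like genes tested, 9 were higher and 1 lower in rd10 vehicle than in WT (median log2 fold change 1.0). H2-Q4 had 14.3, 18.6 and 23.5 CPM in rd10 TMB, 16.9, 18.6 and 23.5 CPM in rd10 vehicle and 13.6 to 20.6 CPM in rd10 DR retinas, with 3.08 to 4.43 CPM in WT retinas, and it was 4.82-fold higher in rd10 vehicle than in WT (adjusted p = 1.03e-08). H2-Q6 and H2-Q7 were 5.54-fold and 5.36-fold higher, and all 3 belong to the Q region, whose genes are near copies and whose counts are therefore uncertain. In rd10 TMB 10 of 14 were higher than in WT, and in rd10 DR 7 of 13.

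Of 6 partners of peptide loading, 4 were higher in rd10 vehicle than in WT and 0 lower, where 61.8% of all genes passed. Tapbpl, a tapasin-related chaperone that edits peptides, averaged 13.6 ± 1.52 CPM in rd10 TMB, 15 ± 0.774 CPM in rd10 vehicle, 10.3 ± 1.5 CPM in rd10 DR and 6.92 ± 1.10 CPM in WT retinas, a 2.15-fold rise in rd10 vehicle (adjusted p = 1.66e-07) that Tapbp itself did not show. The general chaperones Hspa5 and Pdia3 were higher by 0.38 and 0.28 on the log2 scale. Of the 6 partners, 2 were higher in rd10 TMB and 1 in rd10 DR than in WT.

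Of 9 proteasome partners, 2 were higher and 4 lower in rd10 vehicle than in WT, where 61.8% of all genes passed. The 2 were Psmb10, the remaining immunoproteasome subunit, which averaged 18.4 ± 1.65 CPM in rd10 TMB, 19.4 ± 1.5 CPM in rd10 vehicle, 16.3 ± 2.21 CPM in rd10 DR and 9.92 ± 1.18 CPM in WT retinas (1.94-fold in rd10 vehicle, adjusted p = 3.10e-07), and Psme1, a subunit of the interferon-induced proteasome activator (1.61-fold, adjusted p = 4.77e-06). Psme2, the other subunit of that activator, was lower in rd10 vehicle, by 0.45 on the log2 scale (adjusted p = 0.0107). In rd10 TMB 2 were higher and 5 lower, and in rd10 DR 2 higher and 2 lower. Of 5 peptidases, Lap3 alone was higher in rd10 vehicle (1.18-fold, adjusted p = 0.00777) and 2 were lower.

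Of 23 interferon and class I regulator genes tested, 11 were higher and 4 lower in rd10 vehicle than in WT (median 0.19, and 61.8% of all genes passed), 12 and 4 in rd10 TMB, and 9 and 1 in rd10 DR. Irf8, a transcription factor of macrophages and microglia, averaged 6.03 ± 0.945 CPM in rd10 TMB, 5.95 ± 0.696 CPM in rd10 vehicle, 5.28 ± 1.04 CPM in rd10 DR and 1.35 ± 0.445 CPM in WT retinas. Irf1, which binds interferon elements, had 12.2, 17.8 and 22.5 CPM in rd10 TMB, 14.1, 15.9 and 49.8 CPM in rd10 vehicle and 11.1 to 15.2 CPM in rd10 DR retinas, with 4.14 to 6.49 CPM in WT retinas, and was 3.47-fold higher in rd10 vehicle than in WT (adjusted p = 0.000358). Relb, a kappa B factor subunit, had 4.34, 5.28 and 7.48 CPM in rd10 TMB, 4.71, 5.50 and 19.5 CPM in rd10 vehicle, with 4.07 to 6.90 CPM in rd10 DR retinas, against 1.86 to 2.58 CPM in WT retinas, and was 3.23-fold higher in rd10 vehicle than in WT (adjusted p = 0.00154). The highest value of both Irf1 and Relb was that of rd10 vehicle retina 4, without which Irf1 was 2.73-fold and Relb 2.43-fold higher than in WT (adjusted p = 2.65e-07 and 1.07e-06), and the list still had 11 genes higher and 4 lower. Ciita, the class II counterpart of Nlrc5, averaged 1.08 CPM in rd10 TMB, 1.08 CPM in rd10 vehicle, 1.2 CPM in rd10 DR and 1.10 CPM in WT retinas, with a log2 fold change of -0.04 in rd10 vehicle against WT (SE 0.174, adjusted p = 0.859). Tnf averaged under 0.15 CPM in every group.

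Between rd10 TMB and rd10 vehicle, 0 genes of these 5 lists passed edgeR's test, with 1 loading partner, 1 proteasome partner, 0 peptidases, 2 class I genes and 1 regulator at an unadjusted p under 0.05. Between rd10 vehicle and rd10 DR, 4 of 6 loading partners, 2 of 9 proteasome partners, 4 of 14 class I genes, 4 of 24 regulators and 1 of 5 peptidases were higher, and 0, 0, 1, 5 and 1 of them were lower, where 42.6% of all genes passed and 21.9% were higher.

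Markers of immune cells also differed between the groups. Summed over 12 microglia genes, the level spanned 342 to 466 CPM in rd10 TMB, 368 to 423 CPM in rd10 vehicle and 244 to 332 CPM in rd10 DR retinas, with 72.9 to 108 CPM in WT retinas. All 12 were higher in each rd10 group than in WT (median log2 fold change 2.54 in rd10 vehicle), all 12 were higher in rd10 vehicle than in rd10 DR (median 0.48), and 0 of 12 differed between rd10 TMB and rd10 vehicle. Of all genes, 31.6% were higher than in WT in rd10 vehicle, 27.2% in rd10 TMB and 14.5% in rd10 DR. In rd10 vehicle against rd10 DR 21.9% of all genes were higher, and between the diets 5.69% passed. Summed over 8 monocyte and macrophage genes, the level spanned 36.3 to 68.9 CPM in rd10 TMB, 42.1 to 55.3 CPM in rd10 vehicle and 26.8 to 47.1 CPM in rd10 DR retinas, with 3.39 to 16.2 CPM in WT retinas. The highest WT retina for both sums was WT retina 3. Their part in the differences of the members was not tested.

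Markers of lymphocytes were low. Summed over 8 T cell genes, the level spanned 1.87 to 5.48 CPM in rd10 TMB, 2.87 to 3.97 CPM in rd10 vehicle and 2.25 to 2.58 CPM in rd10 DR retinas, with 0.858 to 1.57 CPM in WT retinas, and Cd3e, Cd8b1 and Cd2 had no count in any WT retina. The 6 genes of natural killer and cytotoxic cells summed to 0.104 to 0.908 CPM in rd10 TMB, 0.226 to 1.0 CPM in rd10 vehicle, 0.117 to 0.289 CPM in rd10 DR and at most 0.0740 CPM in WT retinas, with Klrb1c, Gzmb and Prf1 at 0 in WT. Of the 4 T cell genes with enough counts for the test, 3 were higher in rd10 vehicle than in WT, where 31.6% of all genes were higher. They were Lck (2.45-fold, adjusted p = 7.81e-05), Cd4 (2.82-fold, adjusted p = 0.00270) and Cd3g, which averaged 0.213 CPM in rd10 vehicle and 0.0175 CPM in WT retinas. Cd8a was not called, at 0.514 CPM in rd10 vehicle and 0.342 CPM in WT retinas. In rd10 TMB 2 of 3 were higher than in WT, where 27.2% of all genes were higher, and in rd10 DR 1 of 3, where 14.5% were. Lck averaged 2.04 CPM in rd10 vehicle, where the T cell sum averaged 3.56 CPM. Of the 6 cytotoxic genes only 1, Gzmb, the cytotoxic granule protease, was tested in rd10 vehicle against WT. It averaged 0.234 CPM in rd10 vehicle and had no count in WT retinas. Cd3g and Gzmb passed the filter on low counts only through the rd10 vehicle retinas. A call of either could thus only come out higher and carries no weight. The part of these cells in the differences of the members was not tested. The 3 B cell genes analysed stayed below 1.24 CPM in every retina, and the 5 dendritic cell genes summed to 14.2 to 17.2 CPM in rd10 TMB, 14.3 to 17.3 CPM in rd10 vehicle and 14.2 to 16.7 CPM in rd10 DR retinas, with 10.6 to 12.2 CPM in WT retinas.

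**Figure D4:**
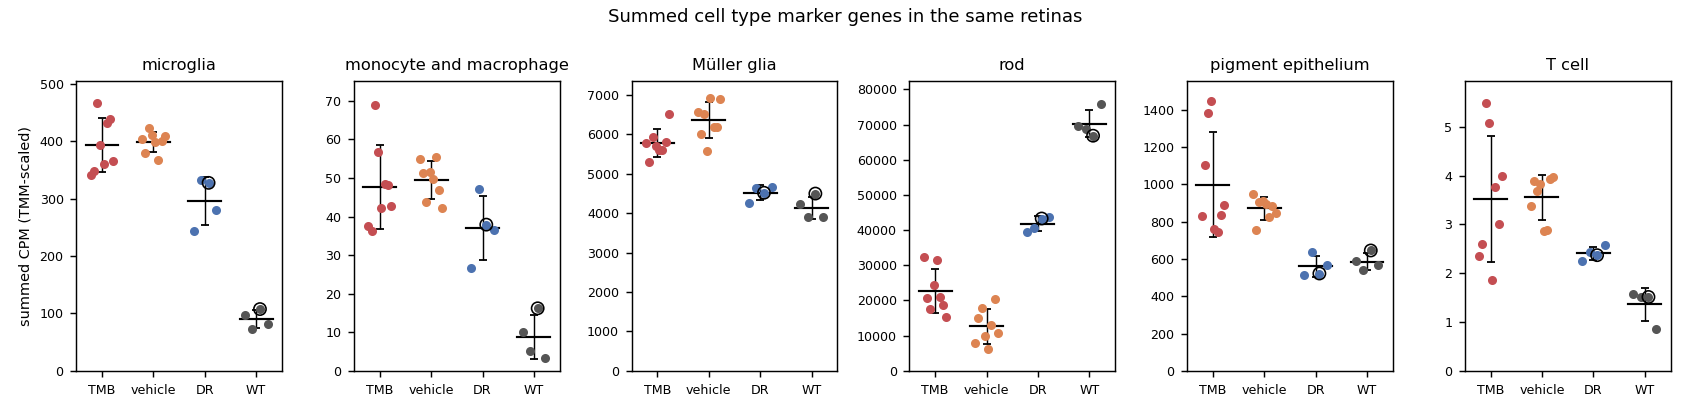
Summed TMM-scaled CPM of marker genes of 6 cell types in each retina, on linear axes from 0, with 1 point per retina, the mean and SD of each group, and circles on WT retina 3 and rd10 DR retina 3. Microglia genes lie at 368 to 423 CPM in rd10 vehicle and 72.9 to 108 CPM in WT retinas, rod genes run the other way, and the rd10 TMB retinas spread most for pigment epithelium genes, up to 1446 CPM. Rlbp1 is counted in both the Müller glia and the pigment epithelium panel and makes up a large part of the latter.

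As the plot of marker sums shows, marker genes of cells of the retina itself also differed in level between the groups. The 7 Müller glia genes were all higher in rd10 vehicle than in WT, where 31.6% of all genes were higher. All 7 were also higher in rd10 TMB (27.2% of all genes), and 4 of 7 in rd10 DR (14.5%). Between the diets 1 of 7 was lower in rd10 TMB. They summed to 5293 to 6502 CPM in rd10 TMB, 5581 to 6911 CPM in rd10 vehicle and 4255 to 4660 CPM in rd10 DR retinas, with 3903 to 4494 CPM in WT retinas. Endothelial genes, from cells that also carry class I, summed to 615 to 898 CPM in rd10 TMB, 770 to 980 CPM in rd10 vehicle and 619 to 693 CPM in rd10 DR retinas, with 389 to 436 CPM in WT retinas. Most of this sum was Kdr, at 576 CPM in rd10 vehicle and 246 CPM in WT retinas, while Pecam1 averaged 15.8 and 13.9 CPM. Against WT, 6 of 7 were higher in rd10 vehicle, 4 in rd10 TMB and 5 in rd10 DR. Between the diets 3 of 7 were lower in rd10 TMB, where 5.69% of all genes passed. Red cell genes reached 100.3 CPM in rd10 TMB retina 3 and 45.9 to 73.2 CPM in rd10 DR, against 8.51 to 29.3 CPM in WT retinas. The part of these differences in the level of the members was not tested.

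In the rd10 DR and WT groups 1 retina was the highest for all 10 members, whereas in rd10 TMB and rd10 vehicle the highest values were spread over 4 and 5 retinas. Of the rd10 TMB retinas, retina 1 was lowest for 5 members and retina 5 for 3, while retina 3 was highest for 4, retina 7 for 3 and retina 6 for 2. Retinas 3, 6 and 7 also had the highest microglia sums of the group, at 466, 432 and 438 CPM, and retinas 1 and 5 the highest rod sums, at 32314 and 31599 CPM. Of the rd10 vehicle retinas, retina 8 was highest for 4 members and lowest for 0, whereas retina 1 was highest for 3 and lowest for 2. Retina 3 of that group, with the highest microglia sum (423 CPM), was highest for 0 members and lowest for 3. The coefficient of variation was larger in WT than in each rd10 group for 9 of 10 members (62.9% for B2m, 61.6% for Nlrc5 and 55.3% for Psmb9 in WT), and WT retina 3 was the highest WT retina for all of them. For H2-D1 it was 13% in rd10 TMB and 11.6% in WT retinas.

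The genes with the pattern most like the mean of the members were found among 16028 genes, as the root mean square difference in SD units over the 24 retinas. They were Trim21, a cytosolic antibody receptor (0.236 SD units), C1ra, a complement protease (0.240), Trim30a, an interferon-induced gene (0.245), Csf1r, the growth factor receptor of microglia (0.255), and Laptm5, a lysosomal protein of blood cells (0.262). Csf1r averaged 56.6 ± 8.60 CPM in rd10 TMB, 53.1 ± 2.74 CPM in rd10 vehicle, 43.5 ± 6.58 CPM in rd10 DR and 12.9 ± 4.0 CPM in WT retinas. Among the members, B2m was nearest to the mean of all members (0.219), and Erap1 and Tapbp were farthest from it (0.362 and 0.946). Each member is itself part of that mean, which lowers its distance, so these values cannot be set against those of the other genes. The 24 points of this measure share their 4 groups, and no test was made of it.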

How the data were processed

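Retinal polyadenylated RNA of 24 mice was sequenced from TruSeq v2 libraries, which keep no strand. Per the labels and the study's methods, reads were trimmed with Trimmomatic, checked with FastQC and aligned with STAR to GRCm38, and the authors deposited raw counts per gene made with HTSeq, which hold no normalisation. Levels are CPM scaled with TMM factors (edgeR 4.0.16, R 4.3.3). Differences were tested on the deposited counts with edgeR's quasi-likelihood test in the 2 groups compared, after filterByExpr (count minimum 10), with Benjamini-Hochberg adjustment over all genes tested and a threshold of 0.05; the SE is the log2 fold change over the root of F. DESeq2 1.42.0 was an alternative. Other alternatives were RLE factors, no TMM, no filter, 1 fit over all groups, sex as a term, retinas of 1 title prefix and each retina left out, and, chosen after seeing the data, the regulators without rd10 vehicle retina 4. Ratios were compared by exact permutation. The scripts were tested on simulated data. All 10 members passed the filter in every comparison. The table repeats 8 WT columns, all equal to their copies, which were used once. Same-group libraries differed by far more than sampling noise, and where labels name no litter, p-values measure the spread between these mice. Annotation is GENCODE on GRCm38 and promoters are from RefSeq GRCm38.p6. The members and gene lists were chosen with earlier results of these data known; the 3 genes named per list are those with the largest fold change of rd10 vehicle over WT among called genes, and Ciita and Tnf were added after their values were seen. Lnpep, H2-Q1, H2-T3, Hfe, Ifng, Ifnb1, Ms4a1 and Pmel were not analysed here.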

Additional observations from a re-analysis of the deposited data

Results flagged for a closer look

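In 5 of 60 groups of retinas tested for a value far from the rest (40 groups of the members' levels and 20 of the ratios), 1 retina stood apart by Dixon's criterion, which chance alone meets in about 1 of 20 groups. Tap1 was 11.7 CPM in rd10 DR retina 3, and the gap to the next retina took 0.876 of the range of the group. Tap1 was also 5.37 CPM in WT retina 3 (0.830 of the range), and Psmb9 was 2.16 CPM there (0.852 of the range). Psmb8 per Psmb5 was 0.0321 in WT retina 3 (0.866 of the range). Psmb10 per Psmb7 was 0.206 in WT retina 4, the lowest of its group (0.868 of the range).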

How the results depend on the processing

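The count of members called against WT stayed at 9 in rd10 vehicle under all 8 other settings and 12 fits that left out 1 retina (9 to 9). It was 8 to 10 in rd10 TMB under the other settings and 9 to 10 with 1 retina left out, and 8 to 9 and 7 to 10 in rd10 DR, where the 10 came without WT retina 3 and the 7 without rd10 DR retina 3 among others. Tapbp was called in rd10 TMB against WT without TMM factors (log2 0.28, adjusted p = 0.0237), and Erap1 was lost there with the RD9 retinas alone (adjusted p = 0.0676). For rd10 TMB against rd10 vehicle the count was 0 in all 10 other settings and 16 fits with 1 retina left out (0 to 0), the fits without rd10 TMB retinas 2, 3 and 4 having been chosen after seeing the data, and for the interaction of diet and sex it was 0 in all 4 and 16 (0 to 0). For rd10 vehicle against rd10 DR the 3 members became 7 without TMM factors (H2-D1, B2m, Psmb9 and Erap1 added), 4 with DESeq2, 1 in 1 fit over all 4 groups (H2-K1 and Nlrc5 lost, adjusted p = 0.0673 and 0.0807) and 1 with the RD10 retinas alone, where Tapbp was called lower (log2 -0.18, adjusted p = 0.0404) and H2-K1, Tap2 and Nlrc5 were lost. They were 2 to 5 with 1 retina left out. The cause was not tested, and the sources do not say what the title prefixes stand for. No member changed direction in a call. Of genes called over all, rd10 TMB against rd10 vehicle gave 1152, and 0 with the RD9 retinas alone, 12 with the RD10 retinas alone, 829 with the prefix as a term, 680 without a filter and 2 to 1676 with 1 retina left out. Of the ratios, H2-K1 per H2-D1 and Psmb9 per Psmb6 in rd10 DR against WT were past an exact p of 0.05 no more when 1 of 5 and 1 of 4 retinas was left out (p = 0.0571). H2-K1 per H2-D1 in rd10 TMB against rd10 vehicle passed without 1 of 5 retinas (exact p = 0.00979 to 0.0497, log2 -0.10 to -0.09). Tap1 per Tap2 in rd10 vehicle against WT passed an unadjusted p of 0.05 without 1 of 3 retinas (exact p = 0.0121 to 0.0485), and in rd10 TMB against WT, where its unadjusted p was 0.0404, it passed no more without 1 of 8 (exact p = 0.0515 to 0.152). Psmb9 per Psmb6 in rd10 vehicle against rd10 DR passed no more without 1 of 9 (exact p = 0.0515 to 0.145). No paired analysis was possible because the numbers in the labels name single mice and give no shared litter or animal across groups. With 4 retinas in a group, 1 retina can decide a call, as for Tap2 and Erap1 in rd10 DR.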
